A study of Homo sapiens with 2 samples.

Results

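Amino acids cross the membranes of human cells through solute carrier (SLC) proteins, and the families SLC1, SLC3, SLC6, SLC7, SLC36, SLC38 and SLC43 hold most of these transporters. Their genes were followed here in 2 libraries of Hep3B cells, an established hepatocellular carcinoma line. The GLE library came from cells given an extract of the plant Glehnia littoralis, and the control library from cells given the solvent dimethyl sulfoxide (DMSO). The labels call the cells wild type and state neither how much extract the sequenced cells received nor for how long. The series asked whether the extract acts on Hep3B cells, with apoptosis as its stated interest. Members were all symbols with these 7 family stems and a number, without pseudogenes and without the cystine transporter gene SLC7A11. The rule gave 68 of the 43424 symbols in the files. Of these, 58 are transporter genes, 9 are antisense RNAs and 1, SLC7A6OS, is a coding gene on the strand opposite SLC7A6.

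Some of these transporters bring single amino acids into the cell with sodium, and others exchange an amino acid inside for another outside. SLC3A2 carries no amino acid by itself: it is the heavy chain (CD98) that brings several SLC7 light chains to the cell surface. When amino acids are short or the endoplasmic reticulum is stressed, phosphorylation of eIF2 raises synthesis of the transcription factor ATF4, which is known to induce several of these genes. Amino acids in the cytosol and lysosome are also read by the kinase complex mTORC1, and SLC38A9 is one of its lysosomal sensors.

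Short stretches of promoter carry the sequence TGATGNAA, the core of the element that ATF4 and C/EBP proteins bind in amino acid response genes, so these are shown first. RefSeq promoter windows (GRCh38.p14), 250 bases before to 50 after the start, were matched for 44 of the 58 transporter genes, using the first window listed for each gene. Both strands were searched, and 4 windows held the sequence: those of SLC1A3, SLC38A1, SLC3A2 and SLC7A1. Capitals mark the match, which in SLC3A2 lies on the reverse strand. The starts used for SLC38A1 and SLC3A2 lie inside the gene spans given below and are not the outermost ones. The 30 bases around each match are on the gene's strand, from chr5:36596357-36596386 (plus strand, SLC1A3), chr12:46266502-46266531 (minus, SLC38A1), chr11:62881719-62881748 (plus, SLC3A2) and chr13:29595663-29595692 (minus, SLC7A1).
SLC1A3: caggaaatgacTGATGCAAagcagggttaa
SLC38A1: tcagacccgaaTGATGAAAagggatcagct
SLC3A2: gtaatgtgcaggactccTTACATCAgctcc
SLC7A1: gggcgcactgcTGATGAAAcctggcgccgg

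The sequence was in 4 of 25 windows of transporter genes with enough counts to compare, and in 1.63% of the 8923 windows of all genes with enough counts. Its 4 carriers did not lie on the same side, as the values below show. SLC3A2 was higher in the GLE library, SLC38A1 and SLC7A1 were lower, and the interval of SLC1A3 included 1. A match is a string of letters in a window and not a bound site.

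The files held 3636351 counts in the GLE library and 5618328 in the control library, and the transporter genes took 0.120% and 0.151% of them. With 1 library per group, no test between conditions could be made, and no difference below has a replicate check. Each ratio is the GLE level over the control level after scaling, with a 95% Clopper-Pearson interval that covers counting error only. The scaled levels are counts per 1000000 (CPM). The cells showed their liver origin, with counts for all 8 hepatocyte and hepatoma markers. For 7 of these 8 the interval lay below 1, against 30.1% of all genes with enough counts. All 8 had 300 or more counts, a range in which the share was 35.1%. Of 5 endothelial markers, VWF, CDH5, STAB2 and LYVE1 had 0 counts in both libraries, and PECAM1 had 1 in the GLE library and 36 in the control library, a ratio of 0.0454 (0.00112 to 0.270). The 5 fibroblast and stellate markers summed to 18.9 CPM in the GLE library and 3.46 CPM in the control library. Their summed ratio was 5.47 (3.28 to 9.53). Of them, COL1A1 alone had at least 30 counts, with 29 in the GLE library and 4 in the control library. The 5 leukocyte markers summed to 466 and 496 CPM, nearly all from LYZ. The part of these markers in the results was not tested.

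Most amino acid transporter genes with at least 30 counts were lower in the GLE library. The 3 such genes with an interval above 1, SLC3A2, SLC38A2 and SLC6A9, are known ATF4 targets. The ATF4 target list was drawn up with earlier results of these data known. With scaling by total counts the interval of SLC6A9, at 1.83, included 1, which leaves 2. Below 30 counts, SLC6A13 also had an interval above 1, and it is not on the ATF4 target list used below. A ratio was read for the 30 transporter genes with at least 30 counts over both libraries. The ratio was below 1 for 27 of them and above 1 for 3. The counting interval lay below 1 for 18, above 1 for 3 and included 1 for 9. Of all 11068 genes counted that often, 30.1% had an interval below 1 and 27.7% had an interval above 1. A level lower by 2-fold or more was seen for 5 members (SLC6A16, SLC6A19, SLC38A11, SLC6A11 and SLC38A7), against a background of 10.5%, and a level higher by 2-fold or more for 0, against 9.54%. The median log2 ratio was -0.56 over the 30 genes and -0.04 over all 11068. In RNA from bulk cells, fewer expressing cells and less RNA per cell cannot be told apart. The whole interval lay beyond 2-fold lower for SLC6A11, SLC6A16 and SLC6A19, where the background was 2.86%, and beyond 2-fold higher for 0, where it was 3.82%.

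**Figure D1:**
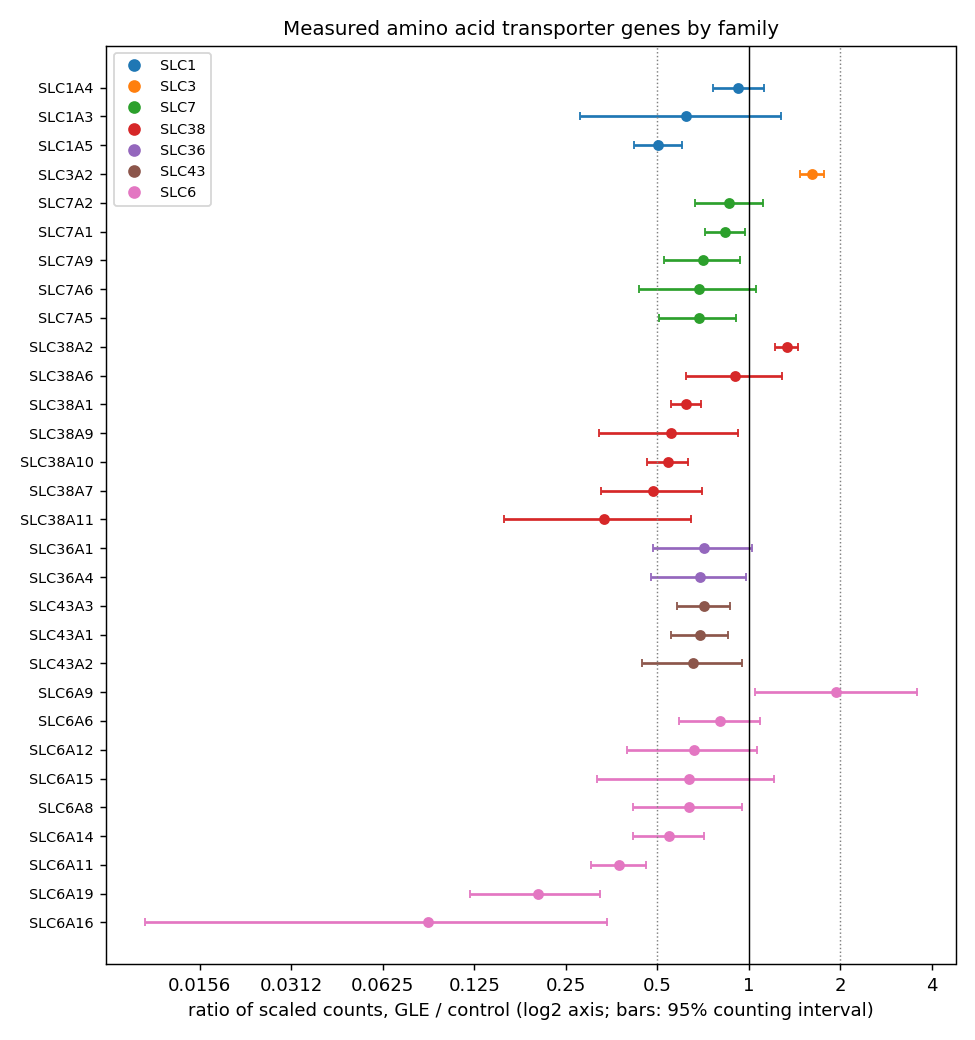
Ratio of scaled counts, GLE over control, for the 30 transporter genes with at least 30 counts, on a log2 axis, coloured by family, with 95% counting intervals as bars and dotted lines at 2-fold. SLC3A2, SLC38A2 and SLC6A9 lie above 1, and the other 27 lie below 1, with SLC6A16 and SLC6A19 farthest out.

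The same side led in each range of counts. Among genes with 300 or more counts, the interval lay below 1 for 8 of 11 transporter genes, against 35.1% of all genes in that range. From 100 to below 300 counts, it lay below 1 for 7 of 12, against 27.9%. Below 100 counts, it lay below 1 for 3 of 7, against 24.0%. The log2 ratios sat close together, with 14 of the 30 genes between -1 and -0.5, where 14.8% of all genes lay.

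**Figure D2:**
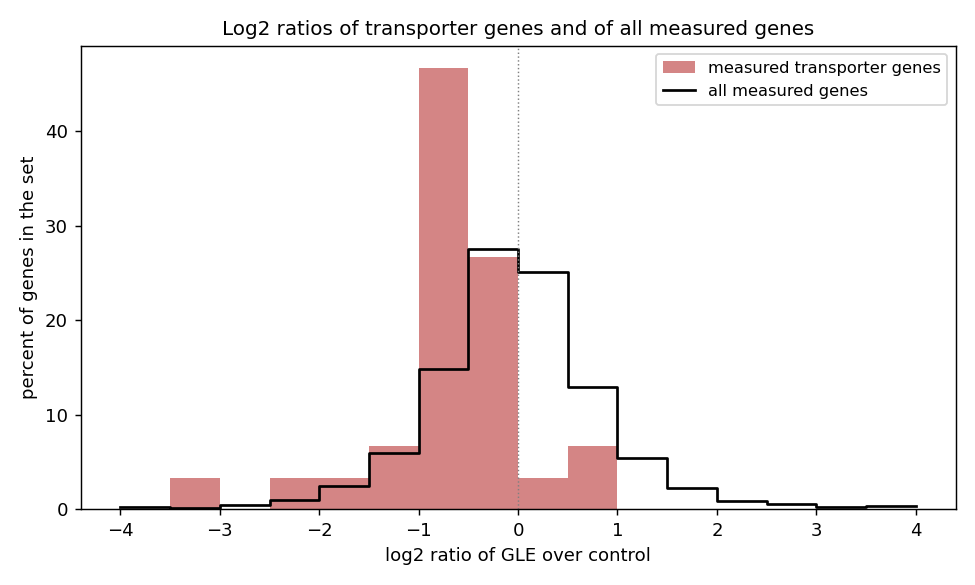
Percent of the 30 measured transporter genes (bars) and of all 11068 measured genes (line) in each step of 0.5 in log2 ratio of GLE over control, with all-gene values beyond the axis placed in the end bins. The bars peak between -1 and -0.5, at 46.7% of transporter genes against 14.8% of all genes.

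SLC3A2, the CD98 heavy chain, had 926 counts in the GLE library and 937 in the control library, which is 262 and 162 CPM. The larger depth of the control library hides a higher level in the GLE library in the raw counts, and the ratio was 1.61 (1.47 to 1.77). The gene lies on chromosome 11 (62856109 to 62888860, GRCh38). SLC3A1, the heavy chain rBAT of the cystine and dibasic amino acid exchanger in kidney and gut, had 8 and 10 counts, too few to compare.

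Among the SLC7 light chains that pair with these heavy chains, SLC7A5 and SLC7A9 had intervals below 1, and the other members had intervals that included 1 or no counts. SLC7A5 (LAT1), which imports large neutral amino acids in exchange for glutamine, had 69 counts in the GLE library and 165 in the control library, a ratio of 0.683 (0.508 to 0.910). Its pseudogene copy SLC7A5P2 had 28 and 31 counts, so the reads of the pair may be split between them. With both summed, the ratio was 0.809 (0.627 to 1.04), and a lower level of SLC7A5 was no longer outside counting error. SLC7A6, an exchanger of cationic for neutral amino acids, had 31 and 74 counts, with a ratio of 0.685 (0.435 to 1.05). SLC7A7 had 4 and 6 counts, SLC7A10 had 8 and 16, and SLC7A8 had 0 in both. The 5 genes SLC7A5, SLC7A6, SLC7A7, SLC7A8 and SLC7A10, members known to pair with SLC3A2, summed to 31.7 CPM in the GLE library and 45.2 CPM in the control library, a ratio of 0.701 (0.557 to 0.878). This direction rests on the member rule, which leaves out SLC7A11, another light chain of SLC3A2. SLC7A11 had 673 counts in the GLE library and 349 in the control library, and with it added the light chains summed to 222 CPM against 106 CPM, a ratio of 2.10 (1.89 to 2.34). SLC7A9, the partner of SLC3A1, had 72 and 167 counts and a ratio of 0.705 (0.527 to 0.934). SLC7A13 was at 0 in both libraries.

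The cationic amino acid transporters of the same family carry arginine, lysine and ornithine without a heavy chain. SLC7A1 (CAT1) had 74.1 CPM in the GLE library and 88.8 CPM in the control library, with a ratio of 0.835 (0.716 to 0.970). SLC7A2, the liver-enriched member, had 26.9 and 31.2 CPM, and its ratio of 0.862 (0.665 to 1.11) was not separable from 1 at this depth. SLC7A3, SLC7A4 and SLC7A14 had 0 counts in both libraries, which allows up to 0.848 CPM in the GLE library and 0.519 CPM in the control library, the level of 3 counts.

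SLC38A2 and SLC38A1, neighbouring genes with related products, lay on opposite sides. SLC38A2 (SNAT2), the sodium-coupled importer of small neutral amino acids that cells induce when amino acids run out, had 990 counts in the GLE library and 1214 in the control library. At 280 CPM against 210 CPM, its ratio was 1.33 (1.22 to 1.45). SLC38A1 (SNAT1), a glutamine importer, had 118 CPM in the GLE library and 189 CPM in the control library, a ratio of 0.624 (0.556 to 0.699). Both lie on chromosome 12, SLC38A1 at 46183063 to 46269043 and SLC38A2 at 46358188 to 46372773. The next gene of the family there, SLC38A4, a hepatocyte transporter of neutral and cationic amino acids, had 8 and 19 counts.

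Other SLC38 genes were lower or too thinly counted. SLC38A10 had 62.8 CPM in the GLE library and 116 CPM in the control library, a ratio of 0.541 (0.463 to 0.631). SLC38A7, which exports glutamine and asparagine from lysosomes, was 2.07-fold lower (1.42 to 3.07), with 37 and 125 counts. SLC38A9, the lysosomal arginine sensor upstream of mTORC1, had 21 and 62 counts and a ratio of 0.554 (0.320 to 0.921). SLC38A11, whose function is little studied, had 11 and 54 counts and was 3.0-fold lower (1.55 to 6.37). SLC38A6 had 49 and 89 counts, with a ratio of 0.900 (0.621 to 1.29). SLC38A3, the liver glutamine transporter of system N, had 11 counts in the GLE library and 8 in the control library. SLC38A5 had 0 and 1, and SLC38A8 had 0 in both.

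Some SLC36 transporters move amino acids out of lysosomes and endosomes. SLC36A4 had 46 counts in the GLE library and 109 in the control library, a ratio of 0.690 (0.478 to 0.982). SLC36A1 had 43 and 99 counts, a ratio of 0.710 (0.484 to 1.03). SLC36A2 and SLC36A3, which are neighbours of SLC36A1, had 0 counts in both libraries. SLC36A1, SLC36A4, SLC38A7, SLC38A9 and the uncounted SLC7A14 were grouped as lysosomal and endosomal members. They summed to 41.6 CPM in the GLE library and 68.4 CPM in the control library, a ratio of 0.608 (0.4997 to 0.737). This grouping was drawn up after the values were seen.

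In the SLC1 family, SLC1A5 (ASCT2), the main glutamine exchanger of many tumour cells, had 159 counts in the GLE library and 517 in the control library. That is 45.0 and 89.5 CPM, a ratio of 0.503 (0.418 to 0.601), just short of 2-fold. Its close relative SLC1A4 (ASCT1), which exchanges alanine, serine and cysteine, had 47.2 and 51.1 CPM and a ratio of 0.925 (0.760 to 1.12). The intervals of these relatives did not overlap. The glutamate transporter SLC1A3 had 11 and 29 counts, with a ratio of 0.620 (0.279 to 1.28). SLC1A1 had 0 counts in the GLE library and 3 in the control library, SLC1A2 had 5 and 1, and SLC1A6 and SLC1A7 had 0 in both.

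The sodium-independent SLC43 genes were lower by similar amounts. SLC43A1 (LAT3), a branched-chain amino acid carrier of liver and pancreas, had 35.6 CPM in the GLE library and 51.6 CPM in the control library, a ratio of 0.691 (0.556 to 0.854). SLC43A2 (LAT4) had 11.6 and 17.7 CPM, a ratio of 0.657 (0.446 to 0.952). SLC43A3, which is known to carry purine bases instead of amino acids, had 41.3 and 58.2 CPM, a ratio of 0.710 (0.581 to 0.865). SLC43A1 and SLC43A3 are near neighbours on chromosome 11.

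**Figure D3:**
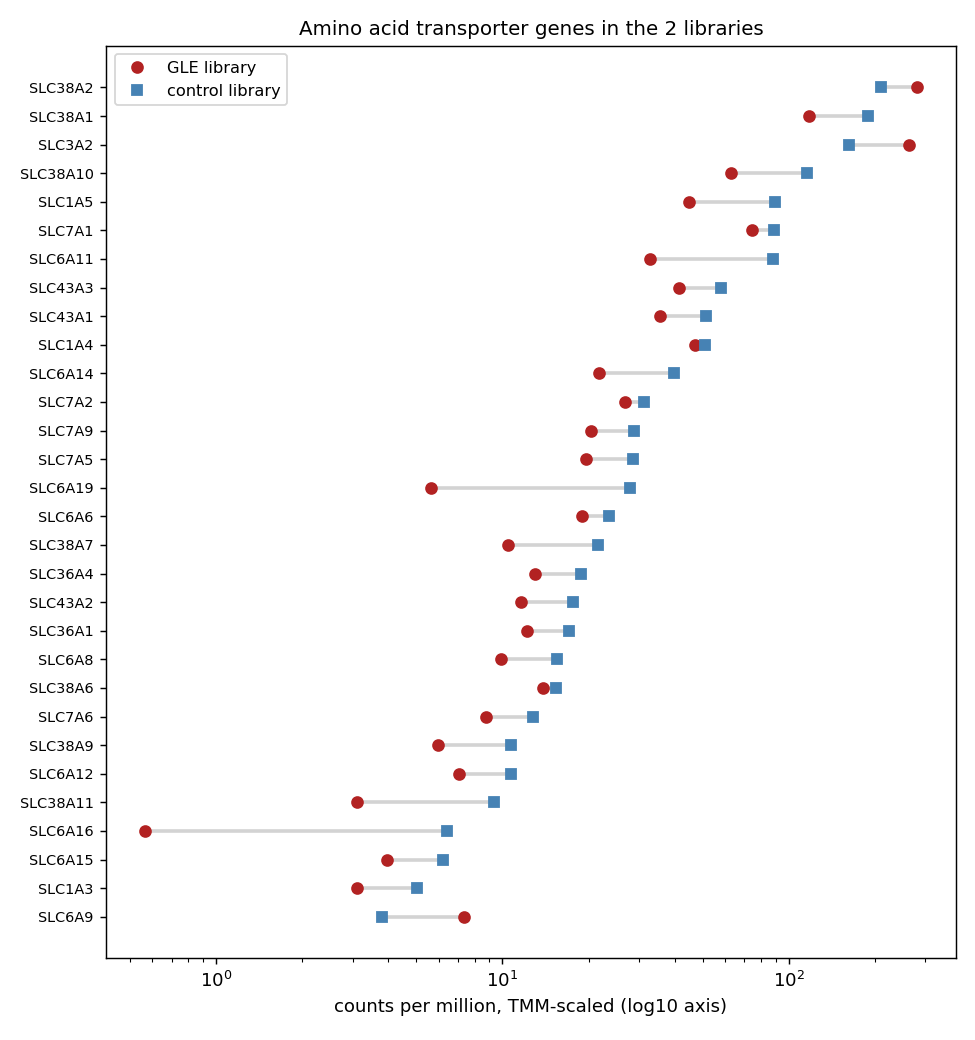
Scaled CPM on a log10 axis for the 30 measured transporter genes, ordered by the control library, with the GLE library as circles and the control library as squares. SLC38A2 and SLC3A2 reach 280 and 262 CPM in the GLE library, above their control values, while SLC6A11 and SLC6A19 lie far below theirs.

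The widest differences were in the SLC6 family, whose members carry amino acids, osmolytes or neurotransmitters with sodium and chloride. SLC6A19, the neutral amino acid importer of kidney and gut on chromosome 5 (1201595 to 1225111), had 20 counts in the GLE library and 161 in the control library. Its 5.66 CPM against 27.9 CPM made it 4.93-fold lower (3.09 to 8.28). SLC6A16, an orphan member on chromosome 19 (49289638 to 49340330), had 2 and 37 counts and a ratio of 0.0883 (0.0103 to 0.342), an interval made wide by the 2 counts. SLC6A11 (GAT3), a GABA transporter on chromosome 3 (10816228 to 10940714), had 116 and 508 counts and was 2.68-fold lower (2.19 to 3.31).

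Other SLC6 genes below 1 had smaller differences. SLC6A14, a broad importer of neutral and cationic amino acids, had 77 counts in the GLE library and 230 in the control library, a ratio of 0.547 (0.417 to 0.711). The creatine transporter SLC6A8 had 35 and 90 counts, a ratio of 0.636 (0.417 to 0.949). The taurine transporter SLC6A6, the betaine and GABA transporter SLC6A12 and the neutral amino acid transporter SLC6A15 had ratios of 0.805, 0.659 and 0.636 with intervals that included 1. SLC6A9 (GlyT1), a glycine importer, was the sole measured gene of this family above 1. It had 26 counts in the GLE library and 22 in the control library, or 7.35 and 3.81 CPM, a ratio of 1.93 (1.05 to 3.57).

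Of the remaining SLC6 genes, SLC6A13 (GAT2), beside SLC6A12 on chromosome 12, had 10 counts in the GLE library and 0 in the control library. Against a floor of 3 control counts it was at least 5.45-fold higher, taking its 10 counts without error. The lower limit of its ratio with counting error on both sides was 3.66, and it did not reach the minimum of 30 counts. SLC6A4 had 0 and 3 counts, and SLC6A17 had 1 and 0. SLC6A2, SLC6A3, SLC6A5, SLC6A7, SLC6A18 and SLC6A20 had 0 in both libraries. In all, 16 transporter genes had 0 counts in both libraries and 12 had between 1 and 29 in total.

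Among the symbols that are not transporters, SLC7A6OS had 136 counts in the GLE library and 132 in the control library, a ratio of 1.68 (1.32 to 2.16). SLC7A6OS has exon sequence in the last 1000 bases of SLC7A6, on the opposite strand, per GENCODE release 29. Whether the counting used strand is not stated in the labels, so reads of this pair cannot be told apart with certainty. SLC6A9 overlaps CCDC24 in the same way, which had 6 and 20 counts. SLC6A6 overlaps GRIP2, which had 0 in both. SLC38A4-AS1 had 7 and 5 counts, and the other 8 antisense symbols had 0 in both.

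As shares of all transporter reads, the SLC3 and SLC6 families differed most between the libraries. SLC3A2 made up 21.2% (19.95 to 22.4) of transporter counts in the GLE library and 11.1% (10.4 to 11.7) in the control library. SLC38A2 made up 22.6% (21.4 to 23.9) and 14.3% (13.6 to 15.1). The SLC6 family took 8.98% (8.15 to 9.87) in the GLE library and 15.2% (14.4 to 16.0) in the control library. The summed level of the 58 transporter genes was 1238 CPM against 1467 CPM, a ratio of 0.844 (0.814 to 0.875), and SLC3A2 and SLC38A2 hold much of that sum.

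The promoters of the measured genes whose interval bounds lie farthest from 1 in each direction are shown next. Whether promoter make-up goes with direction was not tested. The 250 bases before the start are printed on the gene's strand, from chr11:62881449-62881698 (plus, SLC3A2), chr12:46372774-46373023 (minus, SLC38A2), chr5:1201345-1201594 (plus, SLC6A19) and chr19:49325192-49325441 (minus, SLC6A16). The stretches of SLC3A2 and SLC6A16 lie inside the gene spans given above, so the starts used for them are not the outermost ones. Capitals mark GGGCGG (the GC box), TATAAA (the TATA box), CACGTG (the E-box) and GTTAAT (the first 6 bases of the site of the liver factor HNF1), on either strand. These 4 strings were chosen after the values were seen.
SLC3A2: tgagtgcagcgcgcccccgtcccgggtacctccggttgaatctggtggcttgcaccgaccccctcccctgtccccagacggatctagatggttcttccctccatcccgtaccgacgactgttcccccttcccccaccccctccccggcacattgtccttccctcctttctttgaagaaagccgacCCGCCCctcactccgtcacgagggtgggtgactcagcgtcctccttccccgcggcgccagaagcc
SLC38A2: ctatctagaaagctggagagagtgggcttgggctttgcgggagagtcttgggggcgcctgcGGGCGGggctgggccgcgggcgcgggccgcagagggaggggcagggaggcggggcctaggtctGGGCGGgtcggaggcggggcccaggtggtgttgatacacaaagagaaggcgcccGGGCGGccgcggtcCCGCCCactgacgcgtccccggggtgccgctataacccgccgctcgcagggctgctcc
SLC6A19: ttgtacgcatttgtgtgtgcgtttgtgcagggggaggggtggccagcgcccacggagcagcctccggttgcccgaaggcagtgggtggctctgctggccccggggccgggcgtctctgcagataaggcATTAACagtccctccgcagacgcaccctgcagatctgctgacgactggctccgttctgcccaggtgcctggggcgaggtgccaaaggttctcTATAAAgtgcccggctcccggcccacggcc
SLC6A16: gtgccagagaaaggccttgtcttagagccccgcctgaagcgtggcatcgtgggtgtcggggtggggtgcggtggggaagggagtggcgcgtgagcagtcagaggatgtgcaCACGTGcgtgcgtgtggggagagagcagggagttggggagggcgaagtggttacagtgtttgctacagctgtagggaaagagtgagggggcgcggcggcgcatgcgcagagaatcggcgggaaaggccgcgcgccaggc

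SLC38A2 holds 4 GC boxes in this stretch and SLC3A2 holds 1, and neither holds the exact string TATAAA. SLC6A19 holds a TATA box whose first base is 30 bases before the start, and the HNF1 string 122 bases before it. In whole windows, the GC box was in 18 of 25 measured transporter genes and 70.9% of all measured genes. The TATA box was in 2 of 25 and 5.27%, the E-box in 4 of 25 and 10.6%, and the HNF1 string in 1 of 25 and 3.62%. The median GC content of the windows was 65.0% for measured transporter genes and 65.3% for all measured genes.

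The transporters known as ATF4 targets lay on both sides. Of 7 measured, the interval lay above 1 for SLC3A2, SLC38A2 and SLC6A9 (SLC6A9 not by total counts), and below 1 for SLC1A5, SLC7A5 and SLC7A1. It included 1 for SLC1A4, and SLC7A3 had no counts. Their median log2 ratio was -0.11. SLC7A11 is not on this list because the member rule leaves it out. It had 673 counts in the GLE library and 349 in the control library, the deeper of the 2. Outside the ATF4 target list, the interval lay above 1 for 0 of 23 measured transporter genes and below 1 for 15. The median of these 23 was -0.62. Over all measured genes, 27.7% of intervals lay above 1 and 30.1% below. ATF4 itself, the transcription factor, had 953 CPM in the GLE library and 436 CPM in the control library, a ratio of 2.19 (2.08 to 2.30). These lists were drawn up with earlier results of these data known, and the difference between them was not tested.

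Genes of the eIF2 pathway, not all of them amino acid sensors, also lay on both sides, with 7 of 16 intervals above 1 and 6 below. The shares over all measured genes were 27.7% and 30.1%. The median log2 ratio of the 16 was -0.07. Beside ATF4, PPP1R15A and PPP1R15B, the subunits that direct dephosphorylation of eIF2, had 264 CPM in the GLE library against 46.9 CPM in the control library, and 119 against 46.9 CPM. TRIB3, a pseudokinase induced by ATF4, had a ratio of 2.25 (1.93 to 2.64). EIF2AK4 (GCN2), the kinase that reads uncharged transfer RNA, had 20.4 and 23.2 CPM, a ratio of 0.878 (0.650 to 1.18).

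In the mTORC1 sensing list, 11 of 35 intervals lay above 1 and 8 below, against 27.7% and 30.1% of all measured genes. At least 2-fold higher were 6 genes and at least 2-fold lower 2, against 9.54% and 10.5%. The median log2 ratio of the list was 0.02. SESN2, the leucine sensor that restrains mTORC1, had 400 CPM in the GLE library and 94.5 CPM in the control library. RRAGC, a Rag GTPase that recruits mTORC1 to lysosomes, had 147 and 48.6 CPM, and its partner RRAGA had 52.6 and 98.1 CPM. DDIT4, an mTORC1 inhibitor induced by stress, had 115 and 41.4 CPM. The kinase MTOR had a ratio of 0.814 (0.661 to 0.999).

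For carriers of amino acids in other families, 4 of 14 intervals lay below 1, a share close to the 30.1% of all measured genes, and 1 lay above. The median log2 ratio was -0.29. The lysosomal cystine exporter CTNS had 40 counts in the GLE library and 173 in the control library, a ratio of 0.378 (0.261 to 0.535). The aromatic amino acid transporter SLC16A10 had 43 and 151 counts, a ratio of 0.465 (0.324 to 0.657). MFSD12, a lysosomal cysteine importer, had 166 and 493 counts, a ratio of 0.550 (0.459 to 0.657). The mitochondrial ornithine carrier SLC25A15 had 5 and 31 counts. The gene above 1 was SLC25A44, a mitochondrial carrier of branched-chain amino acids, with 105 and 128 counts and a ratio of 1.34 (1.03 to 1.75). The aspartate and glutamate carrier SLC25A12, below the minimum of 30, had 15 counts in the GLE library and 0 in the control library. SLC25A44 and SLC25A12 were named after their values were seen.

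**Figure D4:**
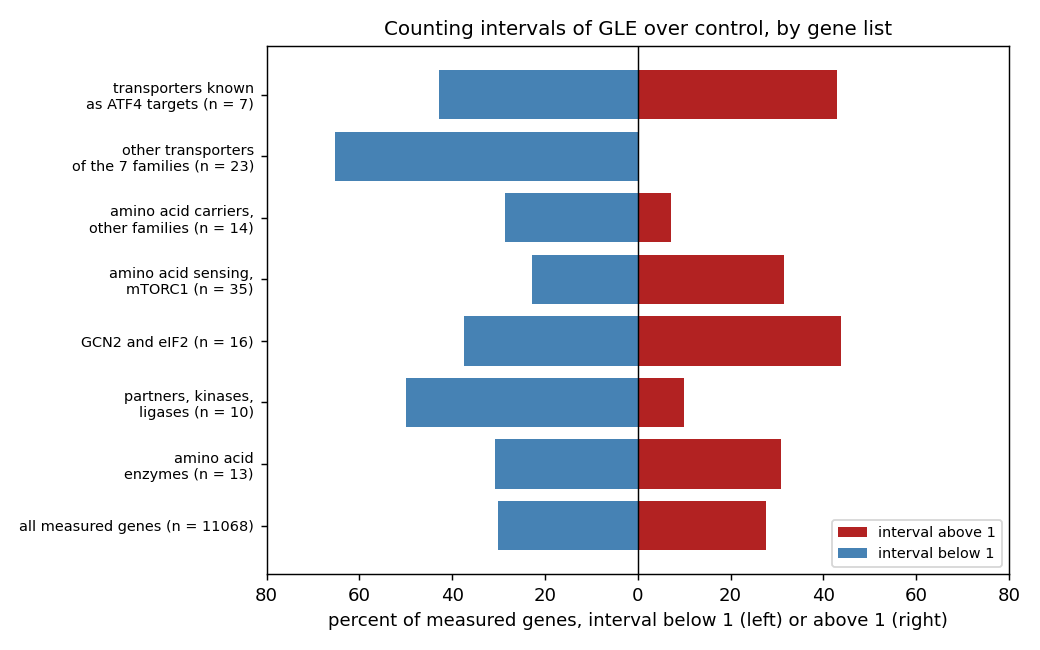
Percent of measured genes in each list whose counting interval of GLE over control lay above 1 (right) or below 1 (left), with the number of measured genes in parentheses and all 11068 measured genes at the foot. Transporters outside the ATF4 target list have 15 of 23 intervals below 1 and 0 above, and the ATF4 target transporters have 3 on each side. SLC7A11, left out by the member rule, is in neither list. All lists were drawn up with earlier results of these data known.

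Partners and regulators of the transporters had 5 of 10 intervals below 1 and 1 above, against 30.1% and 27.7% of all measured genes. CLTRN, which escorts SLC6A19 to the membrane of kidney cells and was named after its values were seen, had 19 counts in the GLE library and 22 in the control library, a ratio of 1.41 (0.722 to 2.73). The kinases SGK1 and SGK2, which raise transporter abundance at the surface, had 15 and 47 counts in the GLE library against 231 and 172 in the control library. WNK1, an osmotic stress kinase, had a ratio of 0.776 (0.725 to 0.829).

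Enzymes that use the carried amino acids had 4 of 13 intervals above 1 and 4 below, against 27.7% and 30.1% of all measured genes. Their median log2 ratio was -0.09. GLUL, glutamine synthetase, had 245 counts in the GLE library and 869 in the control library, a ratio of 0.461 (0.398 to 0.531). GOT1, the cytosolic aspartate aminotransferase, had 711 and 474 counts, a ratio of 2.45 (2.18 to 2.76). BCKDHB, a subunit of the branched-chain ketoacid dehydrogenase, had a ratio of 2.27 (1.91 to 2.72), and PSAT1, of serine synthesis, 1.49 (1.39 to 1.60).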

How the data were processed

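The authors deposited a file of whole-number read counts for each library, keyed by gene symbol and without normalization. Libraries were made from 500 ng of total RNA with a Lexogen QuantSeq kit per the labels, which reads 3′ ends, so counts were not divided by transcript length. Per the submitters' processing notes, fastp, STAR, HTSeq and GRCh38 were used, with no version, annotation or strand setting stated.

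From the deposited counts, effective library sizes were taken with edgeR 4.0.16 (R 4.3.3) by its TMM method (trimmed mean of M-values), with factors of 0.972 for GLE and 1.03 for control. Ratios of GLE over control had exact Clopper-Pearson 95% intervals of the GLE share, turned into ratios. They cover counting error only, and assume independent reads, which libraries without molecular identifiers do not give. Genes with at least 30 counts over both libraries were measured, log2 ratios had 0.5 added to each count, and 3 counts (0.848 CPM in GLE, 0.519 CPM in control) served as the floor. With 1 library per group no test was run. The code was tested on simulated data. DESeq2 1.42.0 served as an alternative scaling.

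Members, lists and settings were chosen with earlier results of these data known. Named genes were all members and, per other list, up to 4 with the interval bound farthest from 1, plus ATF4, EIF2AK4, MTOR and SESN2. A few genes that this rule names are left out of the text. All 68 members matched RefSeq, which gave positions and promoters. Python 3.11.15, SciPy 1.17.1 and matplotlib 3.10.9 were used.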

Additional observations from a re-analysis of the deposited data

How the results depend on the processing

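The counts of members on each side moved little with the scaling. By total counts, DESeq2 size factors, upper-quartile factors, a centred median, or library sizes that left out mitochondrial genes and the 20 genes with most counts, 17 to 20 intervals lay below 1, 2 or 3 above, 5 or 6 members were at least 2-fold lower and 0 at least 2-fold higher. The median log2 ratio ran from -0.64 to -0.53 over these and all other settings, including a count of 2 added. With a minimum of 10 counts, 2 of 36 members were at least 2-fold higher, and with no minimum 4 of 42 were. With a minimum of 100 counts, 3 of 23 members were at least 2-fold lower, and with no minimum 9 of 42 were, since fewer or more genes entered. The shares over all genes at these minimums are not given, so these counts have no background beside them. By total counts the interval of SLC6A9, at a ratio of 1.83, included 1, and those of SLC36A1 (0.671) and SLC7A6 (0.647) lay below 1. With the centred median, the interval of SLC36A4 (0.703) included 1. The SLC7A5 ratio was 0.809 with SLC7A5P2 added, and the summed light chains of SLC3A2 turned from 0.701 to 2.10 with SLC7A11 added, both alternatives chosen after seeing the data. No paired analysis was possible because each group has 1 library. Depth limits genes below 30 counts.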
